A study of Mus musculus with 12 samples.

Results

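Sox11 and 9 other SOX genes (Sox4, Sox12, Sox5, Sox6, Sox13, Sox8, Sox17, Sox18 and Sox21) were followed on 12 arrays of mouse neural progenitor cells. Members were all probes that the files, an older alias or a transcript accession tie to these genes, which gave 28 of 41174 probes and 10 of 27670 symbols. Each culture of 129/Ola cells carried a retroviral open reading frame for Sox11, Crebzf, Pdx1, Zfp451, Pax6, Hmga2, Esx1, Etv6, Gatad2b or Nfxl1, or for EGFP, and a last one was labelled mock. Per the study's design text, the infecting dose let about 95% of cells express the insert. The drug G418, to which the vector gives resistance, followed at 24 h, and cells were harvested at 72 h. The sources used here do not say if the mock cells saw a virus or G418. The series title speaks of 6 interfering and 5 non-interfering factors, and the labels do not say which is which. There was 1 array per culture, so no value below has a replicate, no p-value was computed, and each culture is 1 population. In RNA from whole cultures, fewer cells of a type and less RNA per cell cannot be told apart.

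SOX proteins are transcription factors that bind and bend DNA through a high-mobility-group box. Sox4, Sox11 and Sox12 form the SoxC group, known for switching on neuronal genes as neural progenitors differentiate. Sox5, Sox6 and Sox13 form the SoxD group, which has no activation domain of its own. Sox5 and Sox6 work beside Sox9 in cartilage and restrain oligodendrocyte differentiation in the spinal cord. Sox8 is a SoxE gene of glia and neural crest, Sox17 and Sox18 are SoxF genes of endothelium and, for Sox17, endoderm, and Sox21 is a SoxB2 gene that opposes the progenitor factors Sox1, Sox2 and Sox3.

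A level here is the log2 intensity of a probe minus the log2 of its array's 75th percentile, so 0 is that percentile, and a level is compared only with the same probe on other arrays. A call on an array required that the gene's probe with the highest mean lay at least 2-fold above both EGFP and mock, or at least 2-fold below both, with the brighter side well above background. Of 21021 genes well above background somewhere, 15.9% to 17.8% met this rule on the arrays labelled Sox11, Crebzf, Pdx1, Zfp451, Pax6 and Esx1. On the arrays labelled Hmga2, Etv6, Gatad2b and Nfxl1 the share was 1.02% to 1.92%. The first 6 arrays therefore stand apart from the other 4. Sox11, Crebzf, Pdx1 and Zfp451 filled slide 3, Esx1, Etv6, Gatad2b and Nfxl1 filled slide 2, and Pax6, Hmga2, EGFP and mock filled slide 1, so for slide 3 a slide difference and the distance to the controls cannot be told apart. On slide 2, the Esx1 array had 17.8% of genes called and the other 3 arrays 1.55% to 1.92%, and on slide 1, with the controls, the Pax6 array had 17.1%. Of 10 neural progenitor markers, 7 were well above background on all 12 arrays and none was missing throughout. Their summed linear levels were 82.0 to 97.2 on the 6 arrays that stand apart, against 97.9 to 125 on the remaining arrays, controls included. Most of each sum was Vim, the brightest of the 10, which differed from the control mean by only -0.23 to 0.06 on those 6 arrays. Of these markers, Pax6 was called higher on all 6, and Nes, which codes for the progenitor filament nestin, was called lower on all of them but Pdx1. The summed linear levels of 7 fibroblast and mesenchyme markers were 226 to 243 on the 6 arrays, against 94.8 to 106 on the rest. Of those 7 markers, 3 to 5 were called higher on each of the 6 arrays. The sums of 5 cartilage markers were 6.64 to 9.79, against 0.88 to 1.51 on the rest. Only Col2a1 and Comp of these 5 were called higher, on each of the 6 arrays, while Acan differed by -0.96 to -0.27 there and was not called. The sums of 6 neuron markers were 1.63 to 1.74, against 0.90 to 1.04 on the rest, with Snap25 and Syt1 called higher on all 6 arrays and Map2 on 3. The sums of 5 astrocyte markers were 6.11 to 8.80, against 2.97 to 4.04 on the rest, with 1 to 4 called higher on each of the 6. The sums of 5 endoderm markers were 11.99 to 15.5, against 4.27 to 5.25 on the rest. Foxa2 alone made up nearly all of each of these sums. Foxa2 was called higher and Hnf4a lower on all 6, and Hnf4a also on Hmga2. On the Pax6 array 2 of the 5 were called lower. The part of these markers in the results below was not tested.

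Of the 10 members, 8 were well above background on at least 1 array and 5 on all 12 (Sox11, Sox4, Sox12, Sox13 and Sox21). The 2 probes of Sox8 and the single probe of Sox18 were not well above background on any array. Endothelial markers were faint as well, and Pecam1, Cdh5 and Tie1, 3 of the 6 on the list, were not well above background on any array.

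On the array labelled Sox11, 2 members were called, Sox5 higher and Sox17 lower, where 9.79% of all genes were called higher and 6.92% lower. On the Crebzf array 3 were called, Sox5 and Sox6 higher and Sox17 lower, beside 9.89% higher and 6.27% lower of all genes. No member was called on the Pdx1 array, where 9.87% of all genes were called higher and 6.61% lower. None was called on the Zfp451 array either, where the shares were 9.58% higher and 6.28% lower. Sox13 was called higher on the Pax6 array (10.7% of all genes higher, 6.38% lower) and Sox5 on the Esx1 array (10.4% higher, 7.4% lower). On arrays where few genes were called, Sox6 was higher on the Hmga2 array (0.461% of all genes higher, 0.557% lower), and Sox6 and Sox13 on the Etv6 array (1.09% higher, 0.833% lower). The Gatad2b array (0.69% of all genes higher, 0.999% lower) and the Nfxl1 array (0.376% higher, 1.17% lower) had no called member. Shares of all genes called, here and below, are over the 21021 genes well above background somewhere, a filter that 8 of the 10 members pass. Counts of 0 to 3 among so few genes are too small to set the family apart from the background. The colour map of differences shows that no member was called in 1 direction on all 6 arrays that stand apart.

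**Figure D1:**
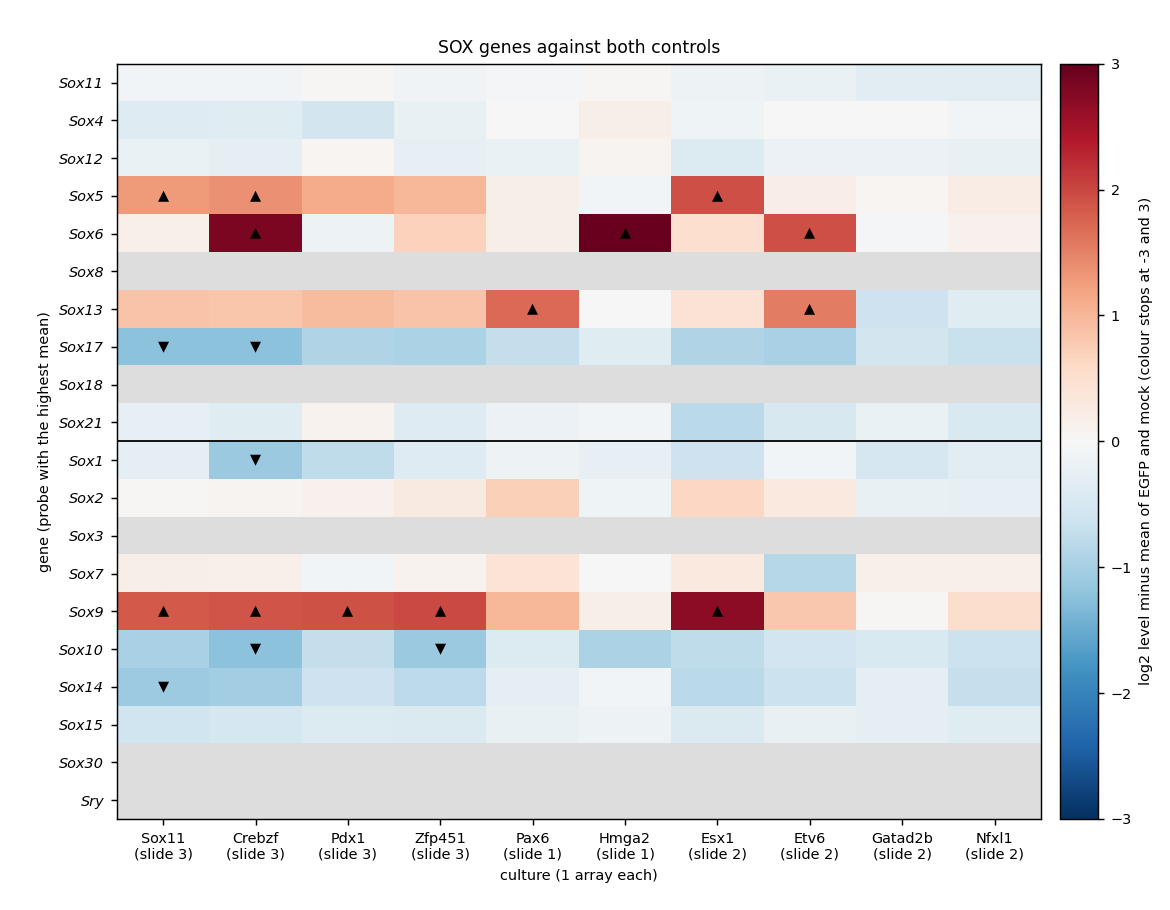
Difference in log2 level from the mean of EGFP and mock (colour, red higher and blue lower) for the 10 members, above the black line, and 10 other SOX genes, below it, on the 10 factor arrays named by their labels. Upward and downward triangles mark calls, and grey rows were not well above background on any array. Signals under an array's floor were raised to it, and cells that rest on such a value carry no mark. Sox9 has 5 upward calls, and no member has more than 3.

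Sox11 was measured by 6 probes, all well above background on all 12 arrays. They lie on the minus strand of chromosome 12 between chr12:25177775-25177834 and chr12:25170366-25170425 (mm7), the second of these 7409 bases downstream of the first. None of the 6 was at least 2-fold from both controls on the array labelled Sox11. In order from the 5' to the 3' end, its difference from the control mean was -0.40, -0.39, -0.14, -0.37, -0.08 and 0.32 in log2. That array ranked 11th, 12th, 11th, 10th, 7th and 5th of 12 from the highest. No Sox11 probe thus met the rule for a call, and the label could not be checked by its own gene. Which probes lie inside the open reading frame that the virus carried is not established here, and a probe outside it cannot see the insert. The other factors were alike in this: of 10 factors, 1 had a probe called higher on its own array. That was Pax6, with 2 of 3 probes called, and each of these was higher still on at least 3 other arrays. Arrays are therefore named by their labels throughout.

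The most 5' probe, A_52_P608516, had levels of -2.40 (Sox11), -2.39 (Crebzf), -2.48 (Pdx1), -2.24 (Zfp451), -2.30 (Pax6), -1.85 (Hmga2), -2.21 (Esx1), -1.94 (Etv6), -1.94 (Gatad2b) and -1.94 (Nfxl1), against -1.996 (EGFP) and -2.01 (mock). The most 3' probe, A_52_P160955, had 1.003 (Sox11), 0.98 (Crebzf), 1.17 (Pdx1), 1.06 (Zfp451), 1.11 (Pax6), 0.73 (Hmga2), 1.34 (Esx1), 0.57 (Etv6), 0.59 (Gatad2b) and 0.48 (Nfxl1), against 0.67 (EGFP) and 0.69 (mock). On the 6 arrays that stand apart the 5' probe lay below both controls and the 3' probe above both. How many of all probes set these 6 arrays apart in this way was not counted. The 3' difference minus the 5' difference came to 0.72 on the array labelled Sox11, 0.69 on Crebzf, 0.96 on Pdx1, 0.62 on Zfp451, 0.72 on Pax6 and 0.87 on Esx1. On the other 4 factor arrays it was -0.11 (Hmga2), -0.17 (Etv6), -0.16 (Gatad2b) and -0.26 (Nfxl1). For scale, EGFP and mock differed by less than 0.27 for 95% of probes at the level of the 5' probe and by less than 0.18 for 95% at that of the 3' probe. Both controls were on slide 1, so this scale, here and below, holds no difference between slides. The image software put the median error of each Sox11 probe at no more than 10.1% of its signal. None of these differences reached 2-fold, so no single probe stands for the gene's level, and no cause of the divergence between its ends was tested.

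The plot of the 6 Sox11 probes shows that the 4 between the ends did not line up by position. A_51_P283516, 4093 bases downstream of the first, was 0.37 lower on the array labelled Sox11 and 0.56 lower on the Pdx1 array. A_52_P178018, 1567 bases downstream, was 0.53 higher on the Esx1 array, its largest difference. A_51_P297434, the brightest on average, stayed within -0.34 and 0.03 on all 10 factor arrays, with its lowest level on the Gatad2b array. The order of the arrays by Sox11 level thus depended on the probe.

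**Figure D2:**
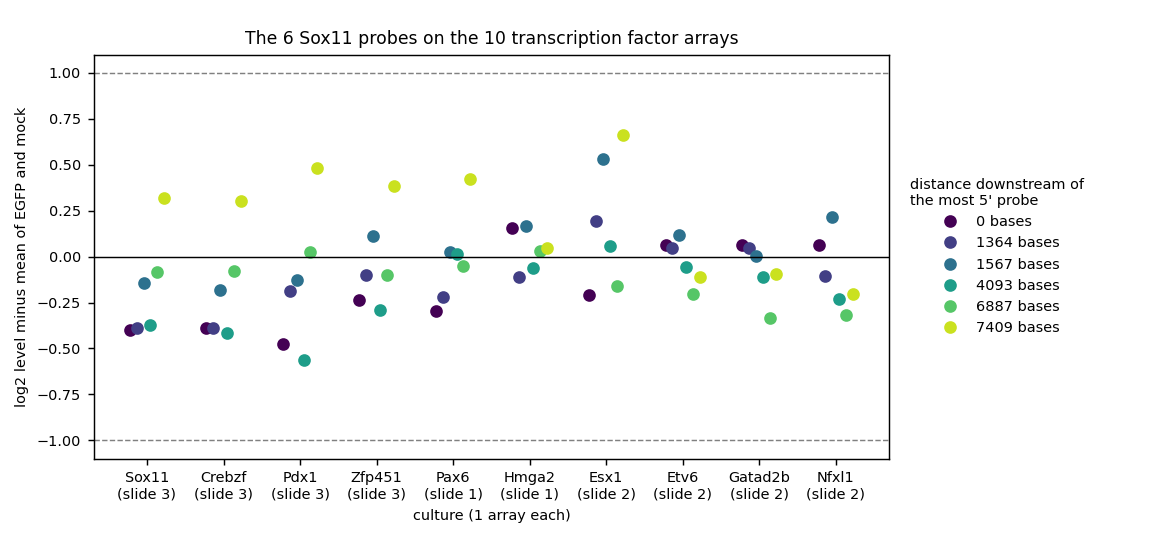
Difference in log2 level from the mean of EGFP and mock (vertical axis) for the 6 Sox11 probes on the 10 factor arrays (horizontal axis, by label and slide), coloured by distance downstream of the most 5' probe. Dashed lines mark 2-fold, which no point reaches; the probe at 7409 bases lies above 0 and the probe at 0 bases below 0 on the arrays labelled Sox11, Crebzf, Pdx1, Zfp451, Pax6 and Esx1.

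The 250 bases before the annotated start of Sox11 are shown because Sox11 is the gene carried by the virus and SOX factors can act on their own genes. They are chr12:27342719-27342968, minus strand, from RefSeq on GRCm38.p6, and capitals would mark a match to a SOX motif.

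Sox11: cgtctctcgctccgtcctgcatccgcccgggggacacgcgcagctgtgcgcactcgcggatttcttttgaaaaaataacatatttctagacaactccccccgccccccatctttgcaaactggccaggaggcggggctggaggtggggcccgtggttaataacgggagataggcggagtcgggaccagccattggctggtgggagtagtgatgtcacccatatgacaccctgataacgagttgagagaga

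Neither AACAAT nor ACAAAG, the core motifs searched on both strands, occurs in this window. Of 32851 RefSeq promoter windows of this length, 9.424% hold AACAAT, 16.46% ACAAAG and 24.04% either. The windows of Sox4, Sox12, Sox5, Sox8, Sox13 and Sox21 hold neither motif, and no window was given for Sox17 or Sox18. A missing match says only that these letters are not in the window.

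Sox4, the SoxC partner of Sox11, was measured by 1 probe, A_51_P105178 (chr13:28317744-28317803, mm7). Its levels were 1.199 (Sox11), 1.24 (Crebzf), 1.04 (Pdx1), 1.37 (Zfp451), 1.58 (Pax6), 1.77 (Hmga2), 1.46 (Esx1), 1.62 (Etv6), 1.60 (Gatad2b) and 1.52 (Nfxl1), against 1.57 (EGFP) and 1.62 (mock). The 4 arrays of slide 3 were the lowest, at 0.22 to 0.55 below the control mean, and were not called. Probes of like level had a median difference of -0.22 on those 4 arrays, so the Zfp451 array, at -0.22, was no lower than such probes and the array labelled Sox11 was lower, at -0.40. On the Pax6 array, which shares the slide of the controls, Sox4 differed by -0.01 while probes of like level had a median of -0.23.

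Sox12, the third SoxC gene, was dim and flat. Probe A_51_P322450 (chr2:152138277-152138336, mm7) ran from -4.60 on the Esx1 array to -4.10 on the Hmga2 array, with -4.39 on the array labelled Sox11, against -4.16 on EGFP and -4.20 on mock. EGFP and mock differed by less than 0.54 for 95% of probes of that level, and no array was further than that from both.

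Sox13, a SoxD gene known for opposing Wnt signalling through TCF1 in mice, varied most among the members well above background on all 12 arrays. Probe A_51_P520917 (chr1:133283277-133283336, mm7) had levels of -1.85 (Sox11), -1.86 (Crebzf), -1.76 (Pdx1), -1.85 (Zfp451), -1.02 (Pax6), -2.71 (Hmga2), -2.26 (Esx1), -1.17 (Etv6), -3.33 (Gatad2b) and -3.06 (Nfxl1), against -2.64 (EGFP) and -2.77 (mock). Pax6 and Etv6 were highest, the 4 arrays of slide 3 followed within 0.10 of each other, and Gatad2b and Nfxl1 were lowest. It was called on the Pax6 array, 3.23-fold higher, and on the Etv6 array, 2.89-fold higher. The slide 3 arrays were 1.79- to 1.92-fold higher than the control mean, under the 2-fold rule. The 95th percentile of the EGFP and mock difference at that level was 0.32, and 7 factor arrays exceeded it above both controls and Gatad2b below both. The 2 called values do not share a slide. Pax6 was on the slide of the controls, while Etv6 stood 1.09 above Esx1, 2.15 above Gatad2b and 1.89 above Nfxl1 on its own slide. The array labelled Sox11 lay among its slide mates.

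The Sox13 level over the 12 arrays was most like that of NAP070564-1, a name as the file gives it, of Kcnk7, a potassium channel subunit, and of Etnk2, an ethanolamine kinase. Their Pearson r with Sox13 over 12 arrays was 0.94, 0.92 and 0.92, the highest of 16098 genes well above background on all 12. All these levels come from the same arrays. No other member was both well above background on all 12 arrays and spread over at least 1 in log2 on its chosen probe.

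Sox5 was seen by 1 of its 4 probes on more than 1 array. That probe, A_52_P33147 (chr6:143919727-143919786, mm7), carries the clone name A730017D01Rik in the file, an alias of Sox5. Its levels were -5.38 (Sox11), -5.30 (Crebzf), -5.56 (Pdx1), -5.68 (Zfp451), -6.49 (Pax6) and -4.74 (Esx1), the 6 arrays that stand apart. It was not well above background on Hmga2, Etv6, Gatad2b, Nfxl1, EGFP or mock. Sox5 by this probe was at least 2.44-fold higher on the array labelled Sox11, at least 2.59-fold on Crebzf and at least 3.82-fold on Esx1. Pdx1, at least 2.15-fold above the control mean, just missed the rule against mock, and Zfp451 was at least 1.98-fold above it. Of the other 3 probes, A_52_P352356 was well above background on Esx1 alone and the remaining 2 on no array. The calls therefore rest on a single probe from a clone sequence, and with the normexp background correction all 3 were lost.

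Sox6 showed the largest differences, also on 1 probe only. A_52_P282171 (chr7:111391015-111391074, mm7) had levels of -6.42 (Sox11), -3.76 (Crebzf), -6.72 (Pdx1), -5.88 (Zfp451), -6.41 (Pax6), -2.80 (Hmga2), -6.08 (Esx1) and -4.64 (Etv6), against -6.59 (EGFP). It was not well above background on Gatad2b, Nfxl1 or mock. Hmga2, Crebzf and Etv6, from 3 different slides, were far above the remaining arrays, each on its own slide too. Sox6 was at least 13.8-fold above the control mean on Hmga2, at least 7.07-fold on Crebzf and at least 3.83-fold on Etv6, and was called on each. The array labelled Sox11 was at least 1.11-fold above that mean. The other 4 Sox6 probes were not well above background on any array, so the probes disagree and the high values have no second probe behind them. With normexp the Hmga2 call remained, at 1.51 in log2, and the calls on Crebzf, at 0.86, and Etv6, at 0.49, were lost.

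RefSeq gives Sox6 several starts, and 5 of its 6 windows hold 1 to 4 SOX motif matches. The window with 4 is shown because no other member's window holds as many; it was chosen after its matches were seen. It is chr7:115824711-115824960, minus strand, GRCm38.p6, from an internal start, and capitals mark AACAAT or ACAAAG on either strand.

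Sox6: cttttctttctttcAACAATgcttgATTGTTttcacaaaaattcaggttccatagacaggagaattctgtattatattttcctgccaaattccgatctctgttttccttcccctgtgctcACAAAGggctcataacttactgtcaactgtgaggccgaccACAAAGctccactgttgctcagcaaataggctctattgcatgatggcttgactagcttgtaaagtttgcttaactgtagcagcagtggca

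The first 2 matches begin 236 and 225 bases before the start. These matches are a description of the letters, and no binding was measured.

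Sox17 was the one member below both controls on all 10 factor arrays. Probe A_51_P273667 (chr1:4487401-4487460, mm7) had levels of -6.26 (Sox11), -5.92 (Pdx1), -5.97 (Zfp451), -5.72 (Pax6), -5.38 (Hmga2), -5.92 (Esx1), -5.99 (Etv6), -5.57 (Gatad2b) and -5.68 (Nfxl1), against -4.85 (EGFP) and -5.18 (mock). It was not well above background on Crebzf. The controls are shared by all 10 differences, so one common pair of values sets that direction. Sox10, Sox14 and Sox15, which are not members, were also below both controls on all 10, each by its probe with the highest mean. The share of all genes that did so was not counted. Sox17 was 2.37-fold lower on the array labelled Sox11 and at least 2.33-fold lower on Crebzf, the 2 calls. Pdx1, Zfp451, Esx1 and Etv6 were 1.87- to 1.96-fold lower, just outside the rule. The 95th percentile of the EGFP and mock difference at this dim level was 0.70, and the remaining 4 arrays were not further than that from both controls. Hmga2, on the slide of the controls, was 0.36 below their mean. The other 3 Sox17 probes were not well above background on any array, and with normexp both calls were lost.

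The 3 Sox21 probes disagreed. A_52_P557911 (chr14:112637960-112638019, mm7) was well above background on all 12 arrays and ran from -4.11 on the Esx1 array to -3.21 on the Pdx1 array, with -3.55 on the array labelled Sox11, against -3.35 on EGFP and -3.26 on mock. By this probe no array was called. A_52_P326502 (chr14:112636647-112636706, mm7) had -4.56 (Sox11), -4.69 (Crebzf), -4.61 (Pdx1), -4.35 (Zfp451), -5.66 (Pax6), -3.88 (Esx1), -4.92 (Etv6) and -5.59 (Gatad2b). It was not well above background on Hmga2, Nfxl1, EGFP or mock. By it the array labelled Sox11 was at least 4.32-fold above the control mean and Esx1, the highest, at least 6.93-fold. On the Esx1 array the first probe was thus at its lowest and the second at its highest. The third probe, A_52_P406411, lay at -3.03 on EGFP and between -7.82 and -5.62 on the other 11 arrays, so its differences follow 1 control array.

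**Figure D3:**
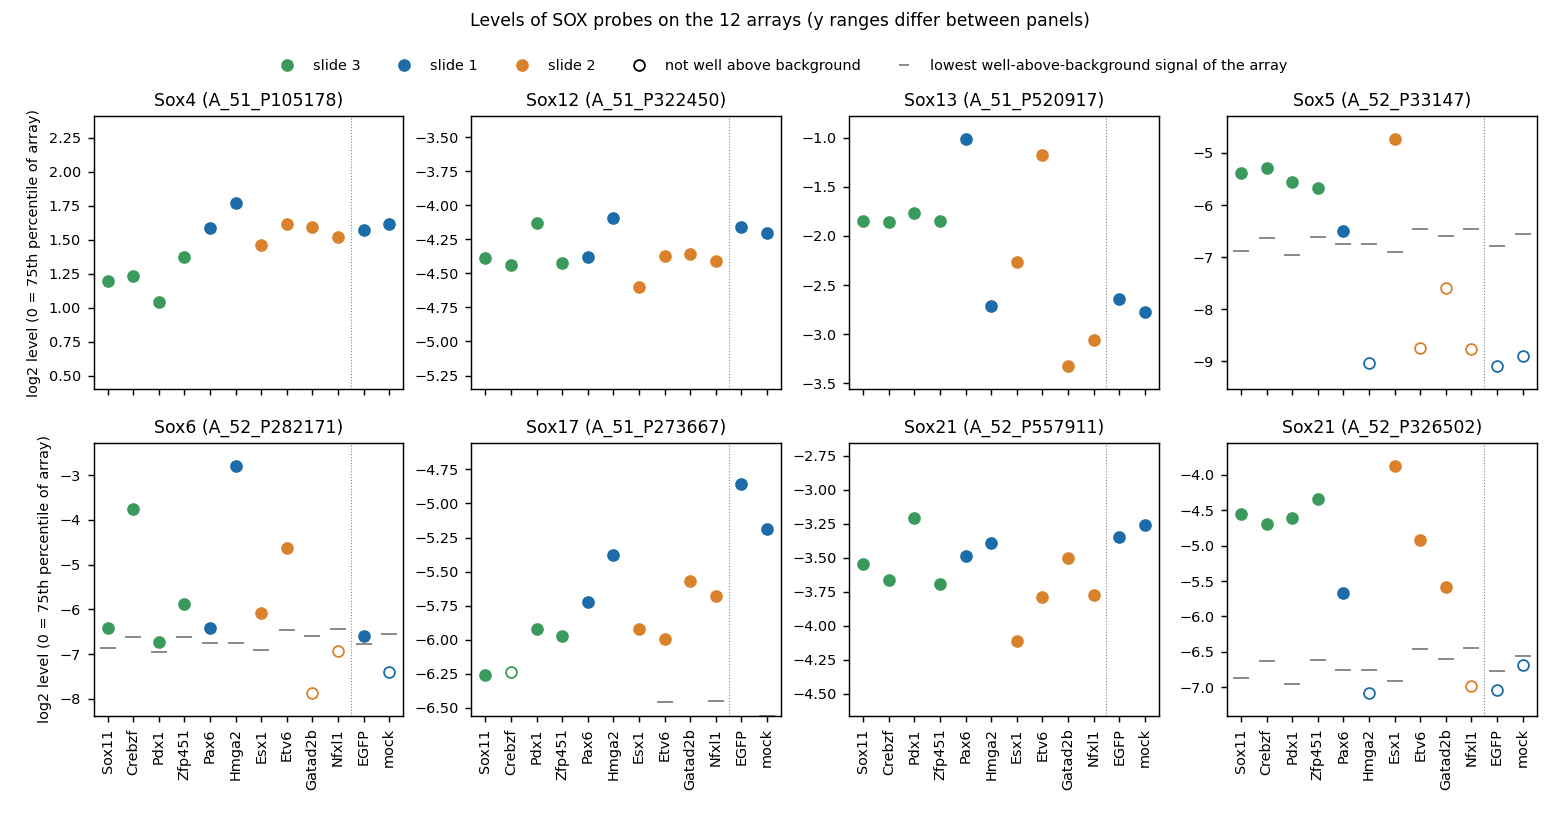
Log2 level (vertical axis, 0 is the array's 75th percentile, ranges differ by panel) of 8 probes of Sox4, Sox12, Sox13, Sox5, Sox6, Sox17 and Sox21 on the 10 factor arrays and, right of the dotted line, EGFP and mock, coloured by slide. Open circles were not well above background and grey dashes mark each array's lowest well-above-background signal; Sox13 peaks on Pax6 and Etv6, Sox6 on Hmga2, Crebzf and Etv6, and the Sox21 probes take opposite courses on Esx1.

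The closest setting for the culture given Sox11 is its own slide, which it shared with Crebzf, Pdx1 and Zfp451. No member was called at least 2-fold above or below all 3, while 0.343% of all genes were called higher and 0% lower. Of the 13 member probes well above background on the 4 arrays, the median size of the difference from the mean of the 3 was 0.05, and it was 0.05 over all 26287 such probes. The largest was 0.97 for Sox6, where the array labelled Sox11 lay within the range of the other 3 and Crebzf was far above. Sox11 itself differed by -0.17 to 0.05 over its 6 probes. A_52_P114703 was the only one of the 13 outside the range of the 3, barely below it, at -0.13 on the array labelled Sox11, against -0.13 on Crebzf, 0.07 on Pdx1 and 0.16 on Zfp451. At the other 12 probes it lay inside that range.

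**Figure D4:**
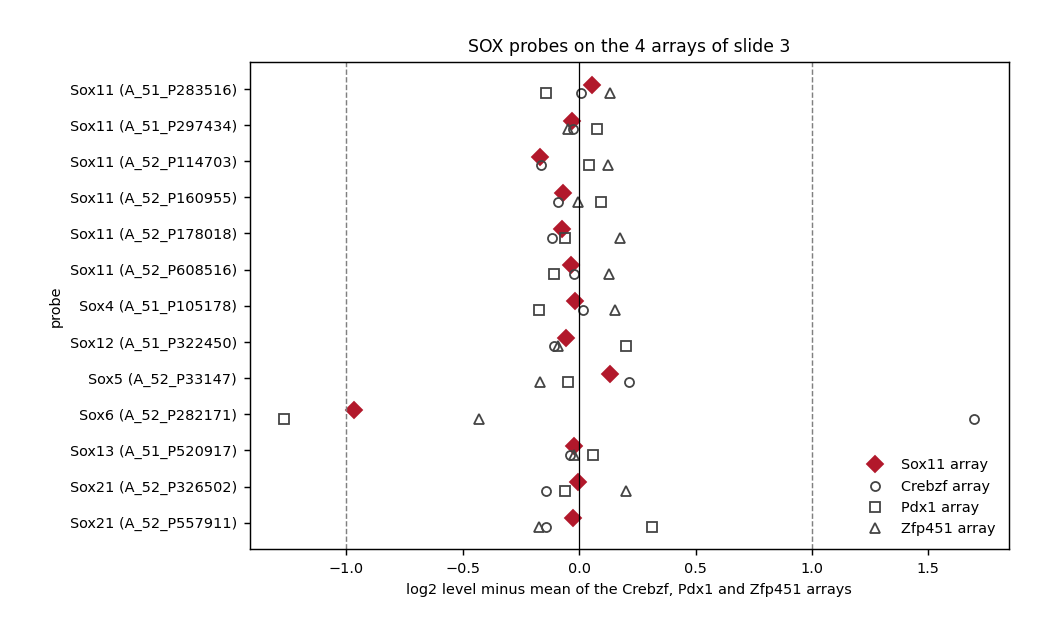
Log2 level minus the mean of the Crebzf, Pdx1 and Zfp451 arrays (horizontal axis) for the 13 SOX member probes well above background on the 4 arrays of slide 3, with the array labelled Sox11 as filled diamonds and the others as open symbols. Dashed lines mark 2-fold; for the 6 Sox11 probes the diamonds lie between -0.17 and 0.05, and only the Sox6 probe, with Crebzf far right, spreads widely.

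Among 10 other SOX genes, 7 were well above background on at least 1 array and Sox3, Sox30 and Sry on none. Sox9, a SoxE factor of cartilage and glia, had levels of 0.65 (Sox11), 0.68 (Crebzf), 0.72 (Pdx1), 0.78 (Zfp451), -0.20 (Pax6), -1.01 (Hmga2), 1.497 (Esx1), -0.38 (Etv6), -1.16 (Gatad2b) and -0.68 (Nfxl1), against -1.25 (EGFP) and -1.147 (mock). It was called on the arrays labelled Sox11, Crebzf, Pdx1, Zfp451 and Esx1, 3.60- to 6.47-fold higher, more arrays than any member. On the Pax6 array it just missed the rule, at 1.99-fold above the control mean. A second probe, A_52_P214630, spotted 10 times, ranked Esx1 and the 4 arrays of slide 3 highest too, and its spots on an array had an SD of at most 0.102. The third and dimmest probe, A_51_P451606, ranked the same 5 arrays highest but only 1.44- to 1.61-fold above the control mean, so by it Sox9 was called nowhere. Sox14, of the SoxB2 group, was 2.14-fold lower on the array labelled Sox11, Sox10 was 2.33-fold lower on Crebzf and 2.18-fold on Zfp451, and Sox1 at least 2.16-fold lower on Crebzf. Sox2, a marker of neural progenitors, was not called, with its highest level, 1.21, on the Pax6 array, against 0.50 on EGFP and 0.47 on mock.

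Of 8 genes reported elsewhere as SoxC targets or partners, 6 were well above background somewhere and 1 was called on the array labelled Sox11, higher, where 9.79% of all genes were called higher and 6.92% lower. A count of 1 among these 6 is too small to set against those shares. The called gene was Stmn2, which codes for a microtubule regulator of neurons, with a level of -2.33 there. It was called on all 6 arrays that stand apart, at least 6.12- to 18.9-fold higher, by 1 probe, and its other probe was not well above background on any array. Map2, a neuronal microtubule protein gene, was called on Pdx1, Pax6 and Esx1, 2.16- to 2.44-fold higher. It just missed the rule on the array labelled Sox11, 2.06-fold above the control mean, on Crebzf, 2.05-fold, and on Zfp451, 1.98-fold. A second Map2 probe was called on the same 3 arrays, and another, A_51_P180754, well above background throughout, was called on none. The neuron markers Snap25 and Syt1, which are not on this list, were 5.44- to 9.32-fold and 5.24- to 8.42-fold higher on the 6 arrays that stand apart. Tubb3, Dcx, Tead2 and Pou3f3 were called nowhere. Against the slide mates, none of the 6 was called on the array labelled Sox11, and their median difference was -0.02. Tubb3, Map2 and Tead2 were the 3 listed genes that passed background on each of the 12 arrays. On the array labelled Sox11 they differed from the control mean by -0.20 (Tubb3), 1.04 (Map2) and -0.56 (Tead2). Their median is thus the Tubb3 value, -0.20, beside -0.13 over the 16099 genes well above background on all 12.

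Of 10 genes reported as SoxD, SoxE or SoxF targets, 8 were well above background somewhere. Of these 8, 5 were called higher on the array labelled Sox11 and none lower. Among all 21021 genes well above background somewhere, 9.79% were called higher and 6.92% lower. The list was chosen with earlier results of these data known, so its count cannot be read as an excess over those shares. The list holds all 5 cartilage markers, the endothelial marker Cldn5 and the endoderm marker Foxa2, so its count and the marker sums above are not separate measurements. For the 6 of its genes that passed background on each of the 12 arrays, the median difference was 1.63, beside -0.13 over all such genes. Col2a1, the fibrillar collagen of cartilage, was 2.90- to 5.79-fold higher on the 6 arrays that stand apart, by its probe with the highest mean. Its levels were 2.52 (Sox11), 2.45 (Crebzf), 2.64 (Pdx1), 2.60 (Zfp451), 1.65 (Pax6) and 1.89 (Esx1), against 0.14 (EGFP) and 0.08 (mock). A second Col2a1 probe, A_52_P216436, well above background on all 12 arrays, was 4.75- to 16.7-fold higher on those 6. By it Col2a1 was also called on Etv6, 2.43-fold higher, so the size depended on the probe. The third was not well above background on any array. Comp, a cartilage matrix protein gene, was 9.37- to 17.6-fold higher on the same 6, Vcam1, an adhesion molecule gene, 2.99- to 3.35-fold, and Foxa2, an endoderm and floor plate factor, 2.57- to 3.31-fold. Col11a2 was called on all of them but Pax6, 2.14- to 2.41-fold higher. Its other probe, A_52_P563285, also well above background on all 12 arrays, was called on none and differed by -0.89 on the array labelled Sox11 and -1.20 on Pdx1, so the Col11a2 probes disagree. Cldn5, an endothelial junction gene, was at least 2.10-fold lower on Pdx1 and Esx1. Acan and Col9a1 were called nowhere, and Matn1 and Prox1 were not well above background on any array. Against its slide mates, the array labelled Sox11 had no called gene of this list, and the median difference was -0.01.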

How the data were processed

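RNA from 12 cultures was labelled with Cy3 from 0.25 µg of total RNA and hybridised to 1-colour Agilent arrays, per the labels' protocols. Per the file headers, Agilent Feature Extraction 10.7.3.1 wrote the deposited files, in which each spot has a linear intensity with background subtracted. The deposited values per sample equal that column on every array. The sources used here name no later normalization by the authors.

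Control spots and spots with an outlier flag (61 to 104 per array) were left out, repeated spots averaged and log2 intensities set against the array's 75th percentile (823 to 1026 units). Between 62.9% and 69.4% of spots were well above background, and none was saturated. Values under an array's lowest well-above-background signal (-6.96 to -6.45) were raised to it. Probes were named by RefSeq accession (22951), symbol (6659), synonym (3109) or as in the file (8455). A gene was read from its probe with the highest mean. Folds are written as at least a value where a dimmer side was not well above background. The bound takes the higher of floor and signal on each array. A difference of an array from probes of like level uses probes within 0.5 in log2 of the control mean. With 1 array per culture there is no test, and the number of arrays limits the precision.

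The members and gene lists were chosen with earlier results of these data known. All members, every called gene of the lists and, for members spread over at least 1 in log2 and well above background throughout, the 3 genes with the highest Pearson r were named. Computation used Python 3.11.15, numpy 2.4.6, pandas 2.3.3, R 4.3.3 and limma 3.58.1 (quantile normalization and normexp, offset 50). The call rules were tested on simulated data. Alternatives were those 2 methods, no floor, a 3-fold rule, each control alone, the mean of all probes, only probes well above background on all 12 arrays, centring within slides and, chosen after seeing the data, outlier spots kept and any probe called. Genome coordinates of probes are mm7 per the file headers, and promoter windows are from RefSeq on GRCm38.p6. Probe sequences were not used here.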

Additional observations from a re-analysis of the deposited data

How the results depend on the processing

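No paired analysis was possible because each culture had 1 array. Of 152 recomputed counts and Sox11 probe values, 116 stayed within 1.5 times the count reported or 1 SD of the EGFP and mock difference. The other 36 did not. Some of the 116 could not move, since the floor does not reach the Sox11 probes and a 3-fold rule cannot raise a count of 0. The 116 is therefore not a measure of stability. No called member changed direction. With normexp the number of called members was 0 on the arrays labelled Sox11, Crebzf and Esx1 and 1 on Etv6. With the 3-fold rule it was 0 on Sox11, 1 on Crebzf and 1 on Etv6. With the mean of all probes, and likewise with only probes well above background on all 12 arrays, it was 0 on Sox11, Crebzf, Hmga2 and Esx1 and 1 on Etv6. Centred within slides it was 0 on Sox11 and 1 on Crebzf. Slides 2 and 3 held no control array, so centring takes out any difference from the controls that all arrays of such a slide share. Without a floor it was 1 on Pdx1, 1 on Zfp451 and 2 on Pax6, with Sox5 added each time. Quantile normalization gave 1 on Pdx1. Against EGFP alone it was 2 on Pdx1, Zfp451 and Esx1, and against mock alone 1 on Pdx1. With any probe of a gene, chosen after seeing the data, it was 3 on Sox11, 4 on Crebzf and 3 on Etv6. By the same choice it was 1 on Pdx1, 1 on Zfp451 and 2 on Esx1, and Sox21 was the gene added each time. The calls of Sox5, Sox6 and Sox17 rest on dim probes, and the means of all probes include probes below background by construction. No probe of these genes was well above background on all 12 arrays. That filter thus removes them before any call, and the counts under it say nothing about their stability. Sox13 on Pax6 kept its call in the 4 alternatives that moved its value (quantile normalization, normexp and each control alone), from 1.35 to 1.76 in log2, and under the 3-fold rule. The other 5 left its value as it was, at 1.69, and so say nothing about its stability. On the array labelled Sox11, quantile normalization gave -0.55 for A_52_P608516 and 0.012 for A_51_P297434. Against its slide mates the Sox11 probes gave -0.035 for A_52_P608516, -0.17 for A_52_P114703, 0.054 for A_51_P283516 and -0.068 for A_52_P160955. No member was called against the slide mates under any of 6 alternatives, of which the 3-fold rule could only keep the count at 0. The cause of these changes was not tested otherwise.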

Other observations

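Single probes of SOX genes stood far above their level elsewhere on 1 array. A_52_P192625, the second probe of Sox10, a SoxE factor of oligodendrocytes and neural crest, had a level of -2.21 on the Pax6 array. It was at least 21.9-fold above the control mean there and not well above background on the other 11 arrays. The other Sox10 probe, A_51_P346704, had -4.36 on that array, against -3.91 on EGFP and -3.97 on mock. No outlier flag was set on these probes, and no replicate array bears on the value.

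Sox7, a SoxF gene, had its lowest level on the Etv6 array, at -4.52, against -3.76 on EGFP and -3.58 on mock. Both Sox7 probes were lowest there, although the second, A_52_P644005, was not well above background on that array.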
